A study of Mus musculus with 6 samples.

Results

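The microRNAs described here are those named miR-297, miR-466, miR-467 and miR-669, most of which come from one long cluster of hairpins in an intron of the mouse gene Sfmbt2. They were chosen by name from a table of mature microRNA counts, with any letter, copy number and arm, which gave 57 of 1028 rows. The libraries were made from a cultured mouse epicardial cell line, the epicardium being the cell layer that covers the heart. Control cells had been transduced with an empty-vector lentivirus (EV, 3 libraries), and the others with a lentivirus carrying a guide RNA against Hdac3 for CRISPR/Cas9 knockout (KO, 3 libraries). Hdac3 is an enzyme that removes acetyl groups from histones as part of nuclear corepressor complexes. Both groups had thus been through lentiviral transduction, and the labels leave unstated whether the cells were a pool or 1 clone. Loss of Hdac3 could not be checked, because only short RNAs were sequenced. The question is which of these microRNAs differ between cells with the Hdac3 guide and cells with the empty vector.

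Sfmbt2 encodes a Polycomb group protein and is an imprinted gene, known for expression from the paternal copy in extraembryonic tissue. Its microRNA cluster is known from rodents and is abundant in placenta and embryonic stem cells. The hairpins arose by repeated duplication, so many of them give identical or nearly identical mature microRNAs. A hairpin can release a microRNA from its 5′ arm (5p) and another from its 3′ arm (3p), and the seed, bases 2 to 8 of the mature microRNA, does most of the target pairing.

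In the GRCm38 annotation 82 hairpins carry these 4 numbers, and 72 of them lie in intron 10 of Sfmbt2 (transcript Sfmbt2-201), between Mir466m at position 10466663 and the end of Mir669h at 10518279 on the plus strand of chromosome 2. The intron itself runs from 10461473 to 10523944. All 72 hairpins are on the strand of Sfmbt2. The intron holds 29 miR-669, 24 miR-466, 14 miR-467 and 5 miR-297 hairpins, with a median gap of 209 bases from one hairpin to the next. Matched by name, 46 of the 57 rows belong to hairpins of the intron alone. Another 4 (miR-297a-5p and the miR-466f rows) have copies both inside and outside it, and 5 (miR-466i-3p, miR-466i-5p, miR-466j, miR-466k and miR-466q) come from hairpins on other chromosomes. No annotated hairpin carries the letter of the remaining 2, miR-466a-3p and miR-466a-5p. The intron also holds Mir466, a hairpin without a letter, and matching by name could not settle whether these 2 rows come from it. The rows are therefore not all products of the Sfmbt2 intron.

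**Figure D1:**
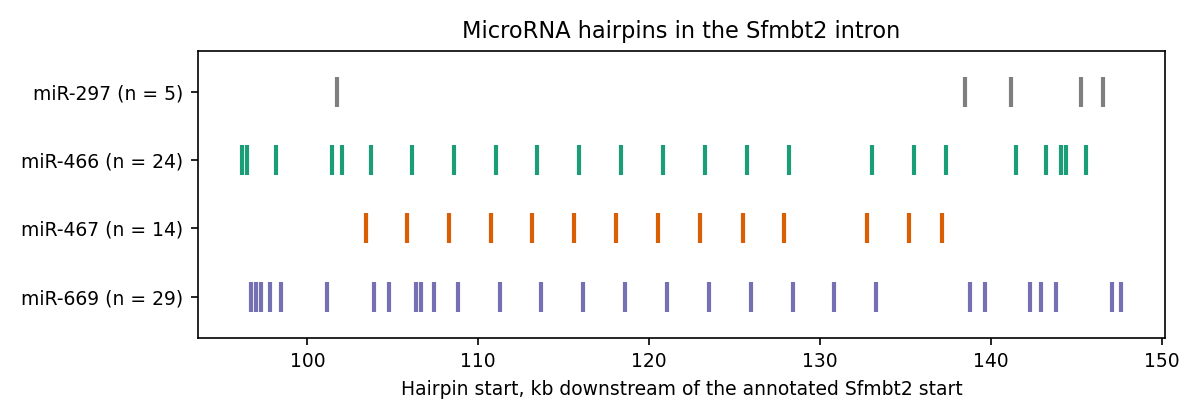
Position of the 72 annotated hairpins of the Sfmbt2 intron, in kb downstream of the annotated start of Sfmbt2 (horizontal axis), with 1 line per hairpin and 1 row per number. The 14 miR-467 hairpins sit in the middle of the cluster, and the 5 miR-297 hairpins lie mostly toward its end.

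Mature sequences from RefSeq (GRCm38.p6) were matched for 4 of the 57 rows, all of them from hairpins outside the intron. They are shown because they have the repeat-like sequence for which the miR-466 name is known, and because miR-466k and the other arm of Mir466i are among the rows tested below. Capitals mark the seed.
miR-466k: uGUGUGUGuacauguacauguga
miR-466j: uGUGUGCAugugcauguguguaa
miR-466i-3p: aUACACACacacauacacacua
miR-466q: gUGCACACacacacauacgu
Purines and pyrimidines alternate without a break over 22 bases in miR-466k and miR-466j and over 20 bases in miR-466i-3p and miR-466q. The median of the longest such run is 4 bases over 1679 mature mouse microRNAs, and 0.179% of them have a run of 22 or more. The 4 have 4 different seeds. miR-466k is at chr3:85467396-85467418 and miR-466q at chr3:28419988-28420007, miR-466j at chr10:60960802-60960824 and miR-466i-3p at chr13:17747552-17747573, all on the plus strand. Mir466q lies within Tnik on the same strand, Mir466i within Cdk13 and Mir466k within Gm37240 on the strand opposite to the gene, and Mir466j in no annotated gene.

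Of 7 annotated Sfmbt2 transcripts 2 run across the intron, and both start in the window chr2:10372186-10372485 (GRCm38.p6, plus strand, RefSeq), the 300 bases around the start that the intronic hairpins would share. It is printed with each CG dinucleotide in capitals.
Sfmbt2: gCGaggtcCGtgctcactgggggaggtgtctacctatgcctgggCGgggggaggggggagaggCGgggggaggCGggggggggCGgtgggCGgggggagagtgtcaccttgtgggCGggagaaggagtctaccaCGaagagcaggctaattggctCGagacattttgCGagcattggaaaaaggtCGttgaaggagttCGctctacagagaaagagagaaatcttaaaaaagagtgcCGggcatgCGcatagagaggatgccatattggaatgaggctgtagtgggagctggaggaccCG
It holds 16 CG dinucleotides, against a median of 7 over 32851 promoter windows of the same length, and 33.0% of those windows hold at least as many. Another RefSeq start window of Sfmbt2, chr2:10370201-10370500, holds 9, and 45.8% of windows hold at least that number. Promoter activity and Sfmbt2 mRNA were not measured by these libraries.

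The libraries held 11824881 to 13412774 counts, of which miR-21a-5p took 63.0% to 70.1%. Levels are given as CPM, counts per 1000000 after TMM scaling, which sets each library's total so that most microRNAs keep their level. One read was worth 0.0638 to 0.0892 CPM, and a count of 0 in a library allows up to 3 reads, or 0.191 to 0.268 CPM, counting error only. The TMM factor was 1.22 in EV 1 and 0.919 to 1.04 in the other libraries. All 6 mesenchymal markers were present, and the 8 pluripotency and trophoblast markers in the table (miR-290 and miR-302 clusters) had at most 14 reads in a library. White blood cell markers summed to at most 0.735 CPM, and the 2 cardiac muscle markers in the table to at most 0.327 CPM. The 2 endothelial markers, both arms of miR-126a, summed to 34.6 to 42.1 CPM. The red blood cell marker miR-451a stood at 54.7 CPM in EV 3 and 62.6 CPM in KO 2, against 0.243 to 2.45 CPM in the other libraries, while the other marker of that list, miR-144-3p, had 1 read in all, in EV 2. The summed neural markers were also highest in EV 3 and KO 2 (52.1 and 57.7 CPM, against 11.3 to 32.7 CPM elsewhere). Nearly all of that sum was miR-9-5p, with 2290 reads in all, against 19 for miR-124-3p. Among the tested rows described below, 4 of 25 were highest in EV 3 and in KO 2 within their groups, against 11.3% of all rows tested. The part of these 2 libraries in the results was tested only by leaving them out.

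The cluster's microRNAs were scarce in these cells, and a single read pattern carried most of their reads. Rows with equal counts in all 6 libraries were taken as shared reads and counted once, which left 52 distinct patterns with 24300 reads over the 6 libraries. That was 0.0284% to 0.0350% of a library. miR-467a-5p and miR-467b-5p had the same count in every library (16041 reads each), and this 1 pattern made up 66.0% of the reads. miR-467a-3p and miR-467d-3p were likewise equal at 257 reads, and miR-466d-5p and miR-466n-5p at 22. The other equal sets had 3 reads or fewer, where equal counts also join unrelated microRNAs. miR-466a-3p and miR-466b-3p were close without being equal, 0 to 4 reads apart in each library. By number, miR-467 held 75.0% of the reads, miR-669 16.3%, miR-466 8.20% and miR-297 0.535%. Rows named 5p held 94.2%.

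At least 50 reads over the 6 libraries were required for a test, which 25 of the 57 rows met, 23 of them distinct. These were 9 of 24 miR-466, 7 of 9 miR-467, 9 of 20 miR-669 and 0 of 4 miR-297 rows. Just inside the threshold were miR-466h-5p with 56 reads and miR-669f-5p with 67. Just outside were miR-466f with 48 reads (15 in EV, 33 in KO) and the 2 arms of miR-297b with 46 each. miR-297b-3p had 26 in EV and 20 in KO, and miR-297b-5p 16 in EV and 30 in KO. The 32 rows under the threshold, 29 distinct patterns, held 523 reads, and 17 of them had 10 reads or fewer.

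miR-467a-5p, counted together with miR-467b-5p, was the most abundant member. miR-467 is known for repressing translation of thrombospondin-1. In order of replicate its level was 184, 184 and 203 CPM in the EV libraries against 222, 238 and 238 CPM in the KO libraries. All 3 KO values lay above all 3 EV values. The mean was 190 ± 10.8 CPM in EV and 233 ± 9.54 CPM in KO (SD, n = 3 each), 1.22-fold higher in KO. The log2 change was 0.29 (SE 0.08, 95% interval 0.12 to 0.46), with an edgeR Benjamini-Hochberg adjusted p of 0.0518, so it missed the threshold of 0.05. The call turned on small choices. Of 17 other settings, miR-467a-5p was called in 6 and not called in 11. The adjusted p was 0.0169 with DESeq2, and with edgeR 0.0422 with median-of-ratios factors and 0.0413 without EV 3 and KO 2. It was 0.0637 with limma-voom. With edgeR it was 0.105 with a replicate block, 0.140 without a filter and 0.517 with library size alone. On the deposited TPM, which scale by library size alone, the groups overlapped, with 226, 190 and 186 in EV against 204, 235 and 225 in KO.

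miR-669a-3p was the only member that rose in KO by edgeR. The miR-669a sequences are known for restraining the muscle factor MyoD in cardiac progenitor cells. It was read 64, 42 and 40 times in EV and 79, 78 and 71 times in KO, or 4.08, 3.43 and 3.57 CPM against 6.41, 6.21 and 5.82 CPM. The KO values were all above the EV values, on the deposited TPM as well. Group means were 3.69 ± 0.343 CPM for EV and 6.14 ± 0.301 CPM for KO (SD, n = 3 each), so the level rose 1.66-fold. On the log2 scale that was 0.73 (SE 0.15, 95% interval 0.40 to 1.06), at an edgeR adjusted p of 0.0169. The name miR-669a-3p matches 12 hairpins of the cluster. Of these, Mir669a-3 also has a 3p row of its own with 4 reads, and the reads of the others cannot be told apart. Leaving out EV 2, KO 1 or KO 2 ended the call (edgeR adjusted p of 0.0821, 0.0945 and 0.0737), and so did scaling by library size alone (0.161). DESeq2 set no adjusted p for it (unadjusted p = 0.0105).

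**Figure D2:**
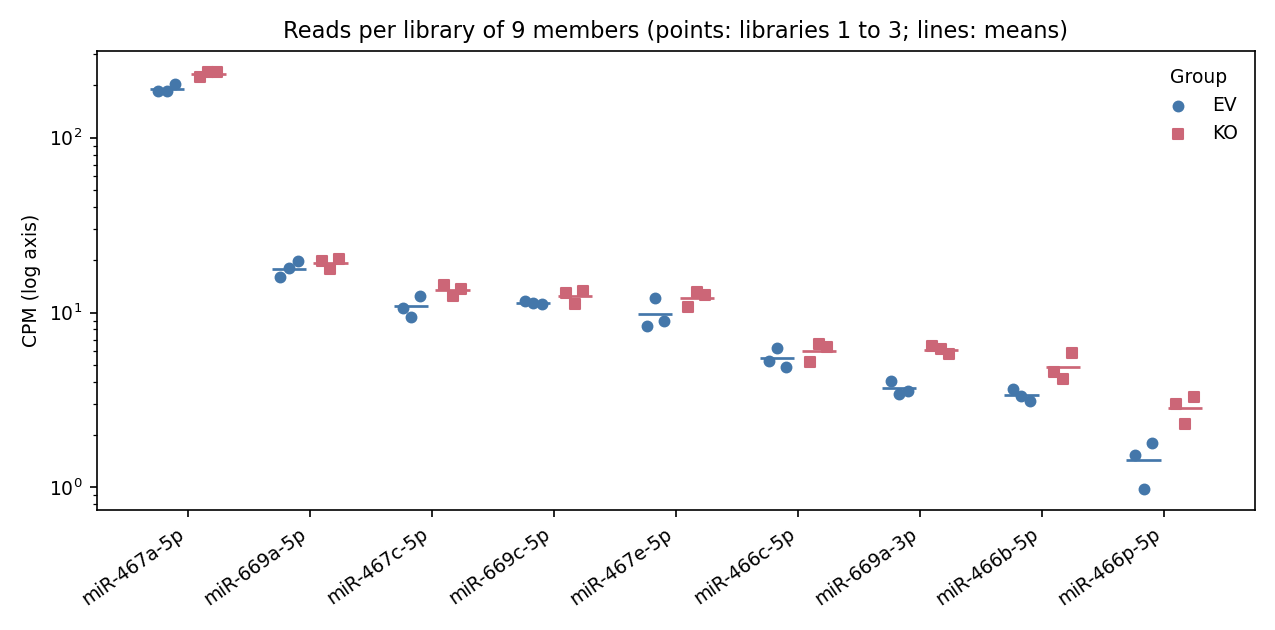
CPM on a log axis for 9 members in the 3 EV (circles) and 3 KO (squares) libraries, with group means as lines. miR-467a-5p stands far above the rest, and the KO points of miR-467a-5p, miR-669a-3p, miR-466b-5p and miR-466p-5p lie above their EV points.

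The one call in 25 rows was near the share over the whole table, where 4.41% of 476 rows were called higher and 2.52% lower in KO (6.93% in either direction). Counted once per pattern of shared reads, limma-voom called 1 member with 4.83% of all rows higher, and DESeq2 1 (miR-467a-5p) with 5.46%. DESeq2 set no adjusted p for 18 of the 25 members, nor for 176 of all 476 rows. edgeR with median-of-ratios factors called 2 patterns with 4.83% of rows. With filterByExpr, where 24 member rows were tested, it called 2 with 5%. Without a filter, where all 57 were tested, it called 2 with 2.72%. Library size without miR-21a-5p gave 1 with 3.78% of rows, and library size alone 0 with 0.21%. Leaving out EV 3 gave 3 of 23 patterns with 8.61% of rows, and leaving out EV 3 and KO 2 gave 3 of 23 with 11.6%. These shares are of rows, while the members are counted as patterns. No member was called lower (edgeR, and 0 by DESeq2 and by limma-voom), and no member below a log2 change of 0 had an unadjusted p under 0.05. The 3 KO values lay above the 3 EV values in 6 of 25 rows, against 14.9% of all rows. These 6 rows count miR-467a-5p and miR-467b-5p, the same reads, separately. On deposited TPM this held for 3 of 25 rows (miR-669a-3p, miR-466p-5p and miR-466h-5p), against 5.46% of all rows. No row had all KO values below all EV values on either scale, where 13.4% and 18.1% of all rows did.

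The direction was more uniform than the calls. Of the 25 tested rows 23 had a log2 change above 0, against 48.3% of all rows tested, and the median was 0.29, against -0.01. Counted once per pattern, 21 of 23 were above 0. With library size alone the median of all rows shifted to -0.16 and that of the members to 0.14, with 17 of 25 above 0. Relative to the median of all rows the members' median was 0.30 under both scalings, and 23 of 25 lay above it under both. A change of scaling shifts all rows by nearly the same amount, so this agreement was built in. With libraries left out, that relative median ran from 0.20 (without EV 1, 20 of 25 rows above) to 0.32 (without EV 3, 23 of 25). Without EV 3 and KO 2 it was 0.23, with 21 of 25 rows above. Many of these rows share hairpins or near-identical sequence, so they are not independent, and their common direction was not tested.

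**Figure D3:**
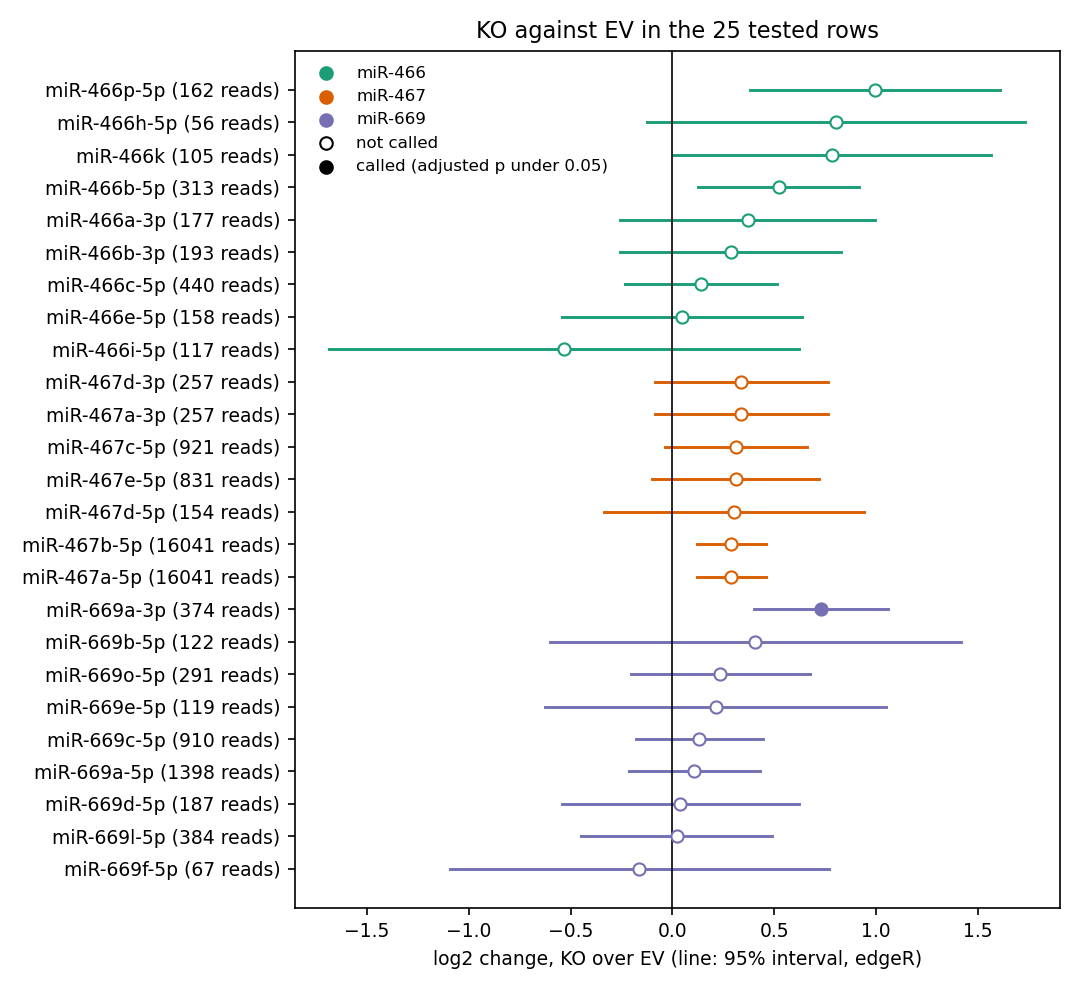
log2 change of KO over EV (points) with 95% intervals (lines) for the 25 tested rows, ordered within miR-466, miR-467 and miR-669. Most points lie right of 0, the filled point is miR-669a-3p, and the intervals widen as the number of reads in the row label falls.

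**Figure D4:**
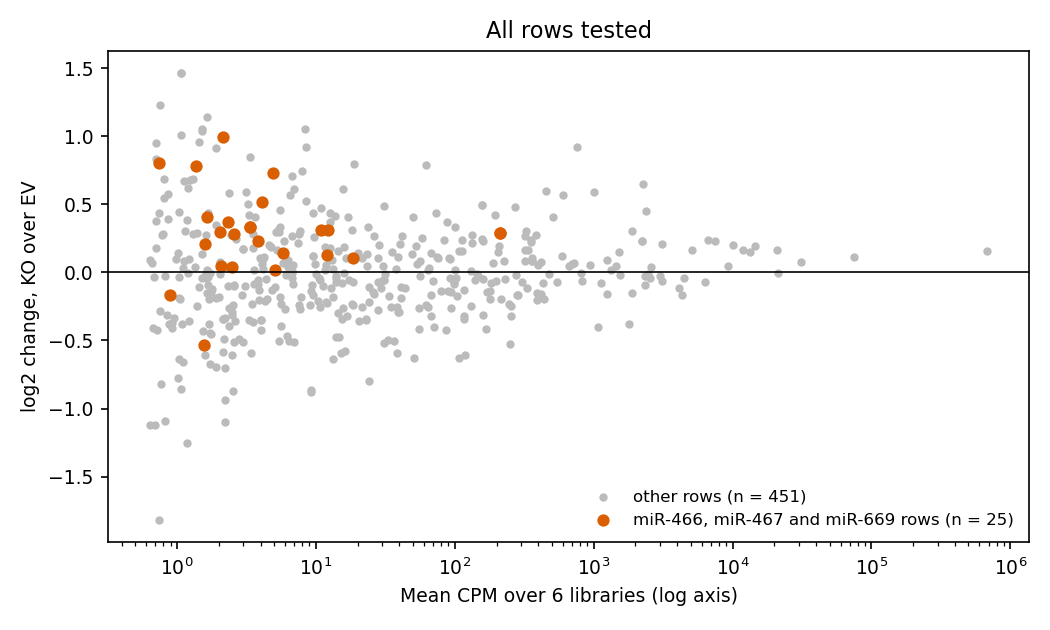
log2 change of KO over EV against mean CPM on a log axis, with 25 members in colour and the other 451 rows tested in grey. The members lie mostly above 0, among other rows with changes of similar size.

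The miR-467 rows had the narrowest range of change with all 6 libraries. All 7 had a log2 change above 0, and the 5 rows of the 5p arm ran from 0.29 to 0.31. miR-467a-5p and miR-467b-5p are the same reads, as are miR-467a-3p and miR-467d-3p. The SEs of the 5p rows, 0.08 to 0.28, were wider than that range. Without EV 2, miR-467a-5p, miR-467c-5p and miR-467e-5p changed by 0.25, 0.20 and 0.47. miR-467c-5p stood at 10.6, 9.39 and 12.5 CPM in EV and 14.3, 12.4 and 13.7 CPM in KO, so that the lowest KO library just overlapped the highest EV library. Its log2 change was 0.31 (SE 0.16, edgeR adjusted p = 0.262), the highest among members with a mean of at least 5 CPM. miR-467e-5p stood at 8.35, 12.2 and 8.92 CPM in EV against 10.7, 13.1 and 12.6 CPM in KO, with a log2 change of 0.31 (SE 0.18). EV 2 lay among the KO values. The shared 3p pattern of miR-467a-3p and miR-467d-3p, added after its values were seen, was at 3.06, 3.10 and 2.77 CPM in EV and 4.22, 4.14 and 2.95 CPM in KO, and its log2 change was 0.34 (SE 0.19). Here KO 3 fell within the EV range. In reads, miR-467a-5p exceeded its own 3p arm 16041 to 257.

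Most miR-669 rows lay close to 0. The 8 rows of the 5p arm had a median log2 change of 0.12, from -0.16 to 0.41, and none was called. miR-669a-5p, the second most abundant pattern, stood at 15.9, 17.9 and 19.6 CPM in EV and 19.6, 17.7 and 20.1 CPM in KO, which overlapped. Its log2 change was 0.11 (SE 0.14, 95% interval -0.21 to 0.43). miR-669c-5p had 11.6, 11.3 and 11.2 CPM in EV and 13.0, 11.2 and 13.3 CPM in KO, a log2 change of 0.13 (SE 0.14). miR-669l-5p, with 3.89, 5.55 and 5.80 CPM against 6.08, 5.18 and 4.10 CPM, had the lowest log2 change among members with a mean of at least 5 CPM, at 0.02 (SE 0.21). With library size alone miR-669a-5p, miR-669c-5p and miR-669l-5p lay below 0.

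Both arms of miR-669a could be set side by side. The 5p arm changed by 0.12 and the 3p arm by 0.72 on the log2 scale (voom values), a difference of -0.60 for 5p minus 3p. With limma diffSplice the adjusted p of that difference over 135 hairpin names was 0.577 (adjusted from 0.0128), so it did not pass. Over all 135 names 0 (0%) passed and 4.44% had an unadjusted p under 0.05. The same difference was 0.22 for miR-466b, -0.03 for miR-467a and -0.02 for miR-467d, none of which passed.

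The tested miR-466 rows held the widest range of change, from -0.53 to 0.99 on the log2 scale. None of the 9 passed in edgeR, where 3 had p under 0.05 before adjustment (12.4% of all rows did so with a higher level in KO). limma-voom called none. DESeq2 set an adjusted p for 1 of the 9, miR-466c-5p, which was not called. miR-466c-5p, the most abundant, stood at 5.29, 6.29 and 4.91 CPM in EV and 5.19, 6.61 and 6.39 CPM in KO, which overlapped (log2 change 0.14, SE 0.17). It lay below 0 with library size alone. miR-466p-5p, described here after its values were seen, was read 24, 12 and 20 times in EV and 37, 29 and 40 times in KO. That was 1.53, 0.980 and 1.78 CPM against 3.00, 2.31 and 3.28 CPM, with no overlap. Its log2 change of 0.99 (SE 0.27, 95% interval 0.38 to 1.61) was the largest among the members, with an edgeR adjusted p of 0.0645. It was called without EV 3 and KO 2 (edgeR adjusted p = 0.0128) and with a replicate block (edgeR adjusted p = 0.0310).

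miR-466b-5p and miR-466k, also chosen after their values were seen, had unadjusted p of 0.0154 and 0.0494 (edgeR adjusted p 0.118 and 0.216). miR-466b-5p stood at 3.63, 3.35 and 3.12 CPM in EV and 4.54, 4.14 and 5.90 CPM in KO, without overlap (log2 change 0.52, SE 0.18). miR-466k, whose hairpin is on chromosome 3, stood at 1.21, 0.735 and 1.07 CPM in EV and 2.27, 1.19 and 1.80 CPM in KO, where KO 2 fell below EV 1. The other tested row from outside the intron, miR-466i-5p, had the lowest log2 change of all members, -0.53 (SE 0.51), at 1.21, 1.39 and 3.03 CPM against 0.487, 1.27 and 2.05 CPM. miR-466h-5p, known for targeting anti-apoptotic genes in cultured cells, stood at 0.510, 0.653 and 0.446 CPM in EV and 1.05, 1.04 and 0.737 CPM in KO. Its KO values were all above its EV values, but with 56 reads the log2 change of 0.80 had an SE of 0.41 (edgeR adjusted p = 0.277).

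miR-466a-3p and miR-466b-3p, close in reads and added after their values were seen, were highest in EV 3 and KO 2, the libraries with high miR-451a. They stood at 3.58 CPM each in KO 2 and at 1.95 to 2.62 CPM in the other KO libraries, against 1.72 to 2.68 CPM in EV. Their log2 changes were 0.37 (SE 0.28) and 0.29 (SE 0.24), and without KO 2 they were 0.082 and 0.067. No miR-297 row was tested. miR-297b-5p, by mean CPM the most abundant of them, had 16 reads in EV and 30 in KO. The other arm, miR-297b-3p, went the other way, with 26 in EV and 20 in KO. miR-297a-5p had 18 in each group and miR-297c-5p 1 in each. The 4 miR-297 rows together had 13 to 28 reads per library.

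Summed over the 52 distinct patterns, the EV libraries held 276, 284 and 309 CPM and the KO libraries 341, 354 and 359 CPM, in order of replicate. The mean was 289 ± 17.1 CPM in EV and 351 ± 9.44 CPM in KO (SD, n = 3 each), 1.21-fold higher. Without miR-467a-5p the sums were 99.2 ± 7.31 and 119 ± 1.83 CPM, 1.20-fold higher. The KO libraries were thus above the EV libraries in this scaling, also without the dominant pattern. On deposited TPM the sums were 337, 294 and 284 in EV against 313, 350 and 339 in KO, and the groups overlapped through EV 1. The sums were not tested, since the rows were chosen with results known.

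**Figure D5:**
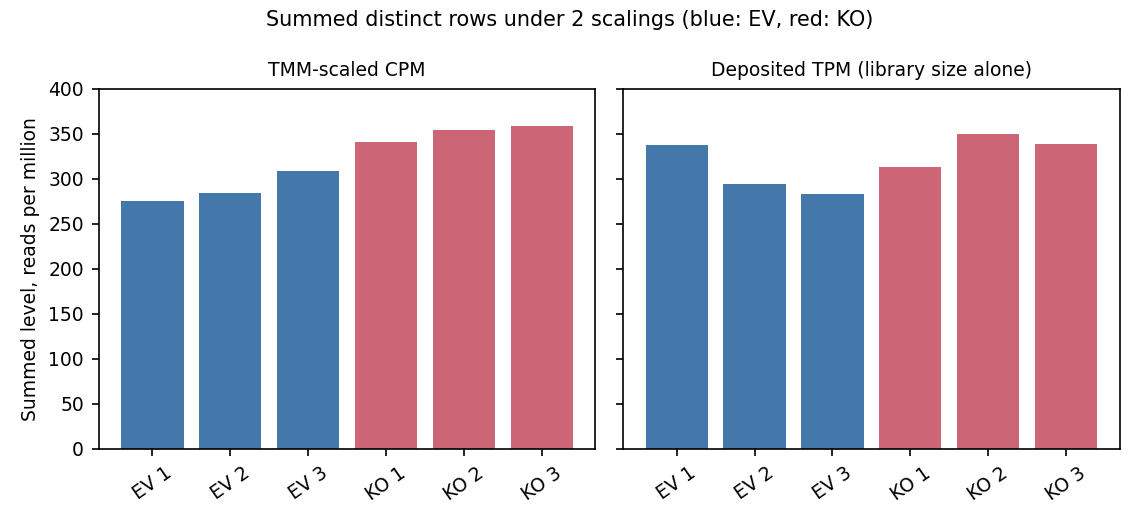
Summed level of the 52 distinct patterns per library, as TMM-scaled CPM (left) and as deposited TPM (right). All KO bars are above all EV bars on the left, while EV 1 at 337 stands above KO 1 at 313 on the right.

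The authors' deposited table lists 78 microRNAs at an adjusted p under 0.05, 42 of them higher in KO, which is 4.09% of all rows of the count table. Of the 57 members, the authors' deposited table lists 4, all higher in KO. The authors' deposited table gives miR-467a-5p and miR-467b-5p a log2 change of 0.27 (adjusted p = 2.08e-04). For miR-669a-3p the authors' deposited table gives 0.66 (adjusted p = 0.00384), and for miR-466p-5p 0.83 (adjusted p = 0.0223). Of the 3 patterns, only miR-669a-3p was called by edgeR.

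Other imprinted loci with microRNAs, outside the Dlk1-Dio3 cluster, were set beside these rows. From a list of 10 microRNAs of Mest, Nespas, Igf2 and H19, 6 were tested. All 6 had a log2 change below 0, with a median of -0.46, and none passed in edgeR. They include both arms of miR-335 and of miR-483, so they are not independent. miR-483-5p and miR-483-3p had only 50 and 81 reads. Before adjustment 3 of the 6 were lower with an edgeR p under 0.05, against 10.3% of all rows. These were both arms of miR-335 and miR-298-5p. DESeq2 called 3 lower, against 4.41% of all rows, and limma-voom 1, against 3.15%. miR-335-5p, from an intron of Mest, stood at 29.9, 39.8 and 40.7 CPM in EV and 27.3, 25.5 and 24.1 CPM in KO. It changed by -0.52 on the log2 scale (SE 0.15), at an edgeR adjusted p of 0.0700. Its KO values lay below its EV values, the opposite direction to most rows of the Sfmbt2 cluster. The difference between the 2 sets was not tested.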

How the data were processed

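Small-RNA libraries of 3 EV and 3 KO samples were compared. Per the file headers, the deposited table holds the authors' read counts per mature microRNA and their TPM, each count per 1000000 of the library total. The authors' deposited comparison table gives group means (a signal, normalized counts), a log2 fold change, p-values and adjusted p-values. Bowtie, mm10 and DESeq 1.8.3 are named per the submitters' processing notes. The sources used here do not give how reads matching several microRNAs were counted.

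Rows with at least 50 reads over the 6 libraries (476 of the 1028 rows, members and all others in 1 fit) were tested with edgeR 4.0.16 in R 4.3.3 (TMM, two-sided quasi-likelihood F test, Benjamini-Hochberg, threshold 0.05). A row that passed is described as called, risen or fallen. Arms were compared with limma 3.58.1 (voom, diffSplice), and DESeq2 1.42.0 was an alternative. The scripts were tested on simulated data. There edgeR called 76% of 2-fold and 50% of 1.5-fold changes, and 3.1% of its calls were false. Changes of the size seen in most members would thus often be missed. Hairpins were taken from RefSeq and GENCODE M21 (both GRCm38, the build called mm10) by name.

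The members and lists were chosen with earlier results of these data known. Rows named were the called members, the most abundant of each number, the 6 most abundant patterns, the highest and lowest change at a mean of 5 CPM or more, and those nearest to 50 reads; others are marked. Other alternatives were median-of-ratios factors, library size with and without miR-21a-5p, other filters (none, filterByExpr, 200 reads), 1 row per equal-count set, a replicate block and libraries left out. Every pair of replicates differed beyond counting noise (lowest chi-square 9093 on 475 degrees of freedom). Nothing in the labels ties replicates to separate cultures, and p-values then cover only the variation among these samples, possibly technical. The labels name no molecular identifiers, and adapter ligation favours some microRNAs, so levels are reads and not molecules. Of the imprinted list, miR-298-3p had 15 reads, and miR-296-5p, miR-675-5p and miR-675-3p were not matched in the table.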

Additional observations from a re-analysis of the deposited data

How the results depend on the processing

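The number of members called higher in KO was 1, with the share of all rows called higher at 4.41%. It was 3 with median-of-ratios factors (4.83% of all rows) and with filterByExpr (5%). With at least 200 reads it was 3 of the 13 members tested. It was 2 with DESeq2 (5.46%) and without a filter (2.72%). Library size alone gave 0 (0.21%), and leaving out EV 3 and KO 2 gave 4 (11.6%). These counts take miR-467a-5p and miR-467b-5p, the same reads, as 2, so counts of 3, of 4 and the 2 of DESeq2 are 2, 3 and 1 distinct patterns. The number stayed at 1 with library size without miR-21a-5p (3.78%), with limma-voom (4.83%) and with 1 row per equal-count set. DESeq2 set no adjusted p for 18 of the 25 rows. With each library left out in turn the number ranged from 0 to 4. It was 0 without EV 2, KO 1 or KO 2 and 4 without EV 3 (8.61% of all rows). For settings without a share in brackets, the share of all rows is not given here. No member was called lower, and no arm difference passed, in any setting run. The replicate numbers did not pair the samples (correlations of deviations 0.26, -0.01 and -0.17 for numbers 1, 2 and 3), and with the replicate block 2 members were called, miR-669a-3p and miR-466p-5p.

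The summed level changed by 0.28 on the log2 scale, by 0.13 with library size alone and by 0.18 with library size without miR-21a-5p, which moved the median of all rows to -0.16 and -0.11. For other imprinted microRNAs, the settings were chosen after the data were seen. There were 3 calls with library size without miR-21a-5p, without a filter, with DESeq2 and without EV 3 and KO 2. At least 200 reads gave 2, limma-voom 1, and a library left out 0 to 1. Of all rows, DESeq2 called 4.41% lower and limma-voom 3.15%. That share is not given here for the other settings, so their counts cannot be set against it. The cause of the differences between settings was not tested.

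Of 16 rows followed over the other settings, 11 kept their direction in all that gave a value. With library size alone miR-466c-5p, miR-669a-5p, miR-669c-5p and miR-669l-5p stood at -0.015, -0.038, -0.030 and -0.12 (log2). miR-669l-5p was also at -0.073 with library size without miR-21a-5p, at -0.0059 without a filter, and from -0.14 (without EV 1) to 0.16 (without KO 3) with a library left out. miR-669f-5p was at 0.034 without EV 3 and KO 2, and from -0.40 (without EV 1) to 0.14 (without EV 3) with 1 library left out. Depth limits the scarce rows, whose SE was 0.24 to 0.51 at 50 to 200 reads, against 0.08 to 0.14 in the 3 most abundant rows.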

Other observations

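Among the rows with too few reads for a test, the miR-466f rows were picked after their values were seen. miR-466f was read 8, 5 and 2 times in EV and 9, 11 and 13 times in KO, and miR-466f-3p 4, 2 and 5 times in EV and 8, 8 and 6 times in KO. miR-466f-5p was nearly equal to miR-466f, with 0 to 3 reads between them in a library. The KO values were above the EV values in CPM in these 3 rows, 2 of which are nearly the same reads, out of 13 members with 20 to 49 reads. The same held for 10.9% of the 92 rows of that depth in the whole table. Mir466f has 3 copies in the Sfmbt2 intron and 1 on chromosome 13, so the source of these reads cannot be told apart.

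All rows under 50 reads together summed to 5.74 ± 0.384 CPM in EV and 8.03 ± 0.735 CPM in KO (SD, n = 3 each, not tested). These sums include the miR-466f rows above and count miR-466f and miR-466f-5p, nearly the same reads, separately. On deposited TPM the groups overlapped, with EV 1 at 7.03 and KO 3 at 6.89. The 5 rows from hairpins outside the intron summed to 3.24 ± 0.994 CPM in EV and 3.40 ± 0.531 CPM in KO, which overlapped.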
